A study of Zea mays with 4 samples.

Results

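The 5 genes described here were grouped by name as enzymes that build or break down starch: AGP2 (by its symbol alone) and Agp2 for ADP-glucose pyrophosphorylase, sbe1 for a starch branching enzyme, zpu1 for a debranching enzyme and Amy2 for an amylase. They were taken by name from the 1108 maize genes that the platform table names. AGP2 (gene ID 542737) and Agp2 (gene ID 542072) differ only in the case of their symbols and were told apart by gene ID. Each gene had 1 named probe set, so 5 of the 17621 probe sets left after 113 controls were taken out are described. All 5 passed the filter on low values that kept 10782.

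The arrays measured RNA from the internode that carries the ear in F271, a maize inbred line. F271 was crossed with line F288 to map lignin content and wall degradability, and it is the parent with the unfavourable alleles. Early silking was represented by 2 arrays and emerging tassel, the earlier stage, by another 2. All plants shared the line, the irrigated field of a dry, hot summer and the absence of any treatment. F271 is a single inbred line, and the labels name neither the number of plants behind an array nor the age of the plants. Where the labels do not say that replicates came from separate plants, a p-value measures the spread between these arrays, which may be technical.

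Starch is made inside plastids. ADP-glucose pyrophosphorylase, an enzyme of large and small subunits, makes ADP-glucose, the sugar donor, and is held to control the rate of the pathway. Starch synthases add its glucose to growing chains, branching enzymes cut and rejoin chains to make branch points, and debranching enzymes remove misplaced branches during synthesis and any branch during breakdown. Beta-amylase releases maltose from chain ends. Cereal stems can hold starch as a temporary store, while the kernel endosperm has its own forms of several of these enzymes.

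Of the 5 genes, sbe1 had the largest stage difference, and it was higher at early silking by 1.35 on the log2 scale. Agp2 and zpu1 were higher by 0.52 and 0.58, while AGP2 and Amy2 had overlapping stages. None of these differences passed an adjusted p of 0.05 over all 10782 probe sets, and neither did any other probe set (limma, 0% called, smallest adjusted p = 0.0864). At an unadjusted p under 0.05, 24.8% of all tested probe sets were found, and 2 of the 5 genes, sbe1 and Agp2. Early silking lay wholly apart from emerging tassel in 3 of the 5 genes, against 59.7% of all tested probe sets, so that share is near that of the array as a whole. Those 3 were all higher at early silking, where 34.9% of all tested probe sets lay. Without emerging tassel replicate 1 the stages were apart in 5 of the 5 genes, against 81.5% of all tested probe sets with that array left out.

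**Figure D1:**
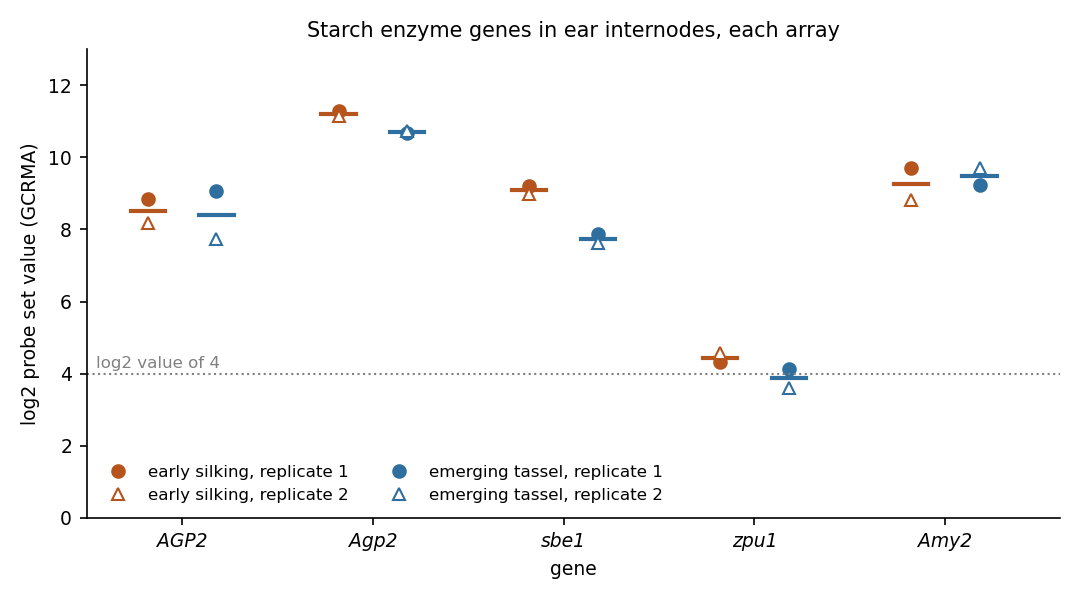
Log2 probe set values (y axis, GCRMA) of the 5 starch enzyme genes (x axis) on each array, early silking in orange and emerging tassel in blue, with circles for replicate 1, open triangles for replicate 2 and a bar at each mean. The stages are furthest apart for sbe1, at 9.20 and 8.99 at early silking against 7.87 and 7.62 at emerging tassel, while those of AGP2 and Amy2 overlap.

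Of the ADP-glucose pyrophosphorylase genes, Agp2 is also named Agpsemzm in the RefSeq table, a name given to the small subunit known from the maize embryo. Its log2 level was 11.29 and 11.14 at early silking, against 10.67 and 10.72 at emerging tassel. Both silking arrays were above both tassel arrays, and replicate 1 minus replicate 2 was 0.14 at early silking and -0.05 at emerging tassel. The difference of 0.52 had an SE of 0.18 and a 95% interval from 0.02 to 1.02, a 1.43-fold higher value (limma, adjusted p = 0.192). Because the median of all tested probe sets was itself 0.10 higher at early silking, Agp2 was 0.42 above that median.

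For AGP2 the tables give no name that says which subunit it encodes, and that it is an ADP-glucose pyrophosphorylase gene rests on its symbol, letters that are also used for arabinogalactan proteins. Its log2 level was 8.85 and 8.19 at early silking, against 9.06 and 7.74 at emerging tassel. The stages overlapped, and the tassel arrays enclosed the silking arrays, with a gap of 1.32 between the replicates at emerging tassel. The difference was 0.12 (SE 0.55), with a 95% interval from -1.42 to 1.66 (limma, adjusted p = 0.908), so a difference of more than 2-fold in either direction lies inside the interval. It was -0.21 without early silking replicate 1 and -0.54 without emerging tassel replicate 2.

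3 more ADP-glucose pyrophosphorylase genes were found among the named probe sets, from a list of starch genes matched by name. agpsl1, named for the small subunit of the leaf, had log2 levels of 10.29 and 10.52 at early silking, against 9.54 and 9.62 at emerging tassel, without overlap. Its difference was 0.82 (SE 0.19, limma, adjusted p = 0.129). bt2, brittle2, the small subunit known from the endosperm, had 6.77 and 6.47 at early silking, against 6.09 and 5.92 at emerging tassel, a difference of 0.62 (SE 0.21, limma, adjusted p = 0.19). sh2, shrunken2, the large subunit of the endosperm, did not exceed a log2 value of 4 on any array with either of its 2 probe sets. Of the 4 genes grouped here that passed the filter, AGP2 by its symbol alone, the stages were apart and higher at early silking in Agp2, agpsl1 and bt2. Over all tested probe sets, 34.9% were apart and higher. The unadjusted p (limma) was under 0.05 in each of Agp2, agpsl1 and bt2, against 12.7% of all tested probe sets for a higher value at that p. None passed the adjusted threshold.

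The branching enzyme gene sbe1 (gene ID 542315) has to be kept apart from ae1, amylose extender1, which encodes the branching enzyme SBEIIb and carries SBE1 in capitals among its names. sbe1 had log2 levels of 9.20 and 8.99 at early silking, against 7.87 and 7.62 at emerging tassel. The lowest silking array was above the highest tassel array, and the replicates differed by 0.20 at early silking and by 0.25 at emerging tassel. The difference of 1.35 had an SE of 0.21 and a 95% interval from 0.78 to 1.93, a 2.55-fold higher value with an interval from 1.72-fold to 3.80-fold. It was larger than the spread between replicates, but did not pass over all probe sets (limma, adjusted p = 0.0923) or adjusted over the 800 named genes alone (limma, adjusted p = 0.0619), where 3.5% passed. A difference as large as this or larger in the same direction was found in 3.33% of all tested probe sets. With each array left out in turn it ran from 1.23 to 1.48.

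ae1 had log2 levels of 7.28 and 6.81 at early silking, against 7.16 and 7.16 at emerging tassel, with overlapping stages and a difference of -0.12 (95% interval from -0.79 to 0.55). These values are those of its brighter probe set, while its other probe set lay between 2.32 and 2.38 on all arrays. A further gene ID that also carries the name ae1 lay between 2.15 and 2.24.

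zpu1 (gene ID 541711) encodes the pullulanase-type debranching enzyme and lay close to background. Its log2 level was 4.32 and 4.58 at early silking, against 4.13 and 3.61 at emerging tassel, so 1 of the 4 arrays was under the value of 4 used as the floor. The stages did not overlap, although the gap of 0.19 between the nearest arrays was smaller than the replicate difference of 0.52 at emerging tassel. The difference of 0.58 had an SE of 0.27 and a 95% interval from -0.17 to 1.33 (limma, adjusted p = 0.272). Left-out arrays moved it between 0.32 and 0.84. Fold differences this near the floor may be compressed, since values there hold mostly background.

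The debranching enzymes of the isoamylase type gave values on both sides of 0. iso3 had log2 levels of 6.62 and 6.37 at early silking, against 5.98 and 6.18 at emerging tassel, without overlap and with a difference of 0.42 (95% interval from -0.15 to 0.99). iso2, also named sugary4, had 6.22 and 5.01 at early silking, against 5.06 and 6.33 at emerging tassel. Its replicates differed by more than 1.2 within each stage, and its difference of -0.08 had a 95% interval from -1.88 to 1.72. That difference was 0.032 after quantile normalization.

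Amy2 (gene ID 542472) carries amyb5 and BMY1 among its names, which are those of a beta-amylase. Its log2 level was 9.69 and 8.80 at early silking, against 9.25 and 9.70 at emerging tassel. The stages overlapped, with replicates 0.89 apart at early silking and 0.45 apart at emerging tassel. The difference of -0.22 had an SE of 0.39 and a 95% interval from -1.32 to 0.87 (limma, adjusted p = 0.755). It was 0.22 without early silking replicate 2 and 0.0036 without emerging tassel replicate 2.

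The remaining starch genes matched by name were starch synthases and genes of transport and hexose phosphates. Of the 17621 probe sets, 16168 had no gene name, so any starch genes among those could not be found by name. ss1 and zSSIIb, soluble starch synthases, differed by 0.05 (95% interval from -0.61 to 0.71) and 0.06 (from -0.58 to 0.71), with overlapping stages. Granule-bound starch synthase wx1 (waxy1), du1 (dull1) and zSSIIa (sugary2) had values of at most 4 on all arrays, with wx1 between 3.47 and 3.78 and the other two between 2.05 and 2.13. bt1, brittle1, which carries ADP-glucose into endosperm plastids, lay between 2.38 and 2.46. phi1, a phosphohexose isomerase gene, had log2 levels of 10.36 and 10.65 at early silking, against 10.37 and 10.80 at emerging tassel. At these signal levels the genes near background were not detectable, which does not show that they are silent.

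Over the whole list, 19 genes had a named probe set and 13 passed the filter, the 5 genes described first among them. The 19 include the further gene ID named ae1, which was counted by its name alone and did not pass the filter. Of the 13, 9 were higher at early silking, against 57.4% of all tested probe sets, and 4 were lower. The stages were apart in 6, all higher, against 59.7% of all tested probe sets in either direction and 34.9% apart and higher, and none passed an adjusted p of 0.05. Their median difference was 0.12, against 0.10 over all tested probe sets. With the 5 left out, the median of the other 8 was 0.06, and 3 of the 8 had separate stages.

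**Figure D2:**
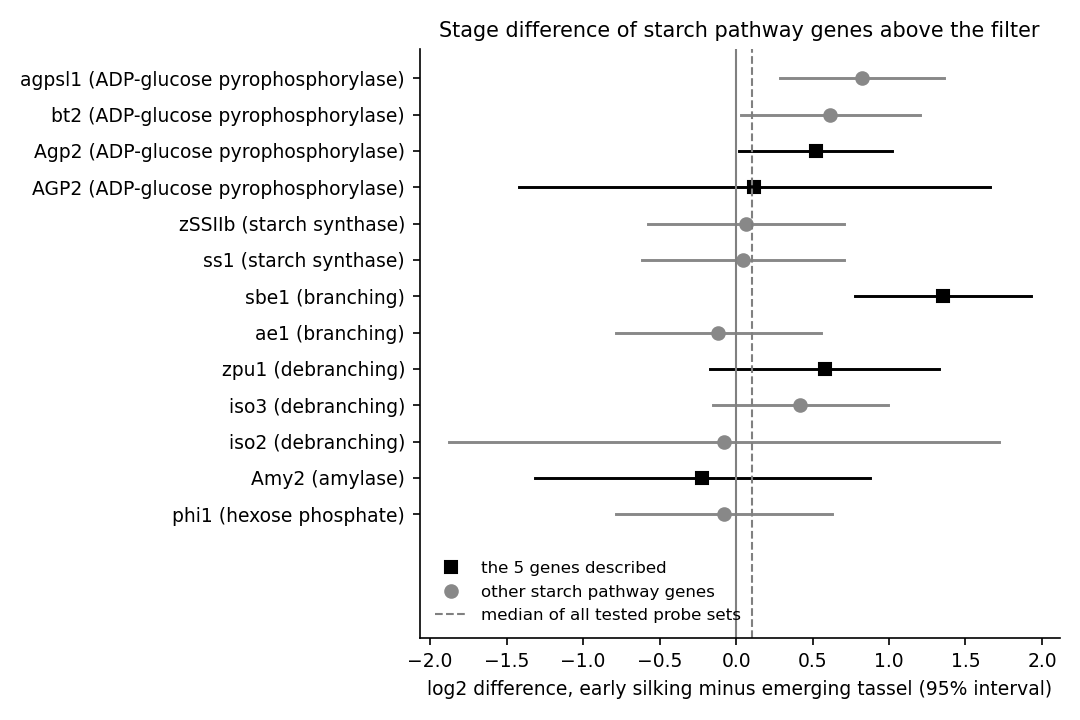
Log2 difference, early silking minus emerging tassel (x axis), with 95% intervals from the fit, for the 13 starch genes that passed the filter (y axis), grouped by enzyme step, with black squares for the 5 genes described first, grey circles for the others and a dashed line at the median of all tested probe sets. The intervals of agpsl1, bt2, Agp2 and sbe1 lie above 0, and those of the other 9 genes include 0.

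**Figure D3:**
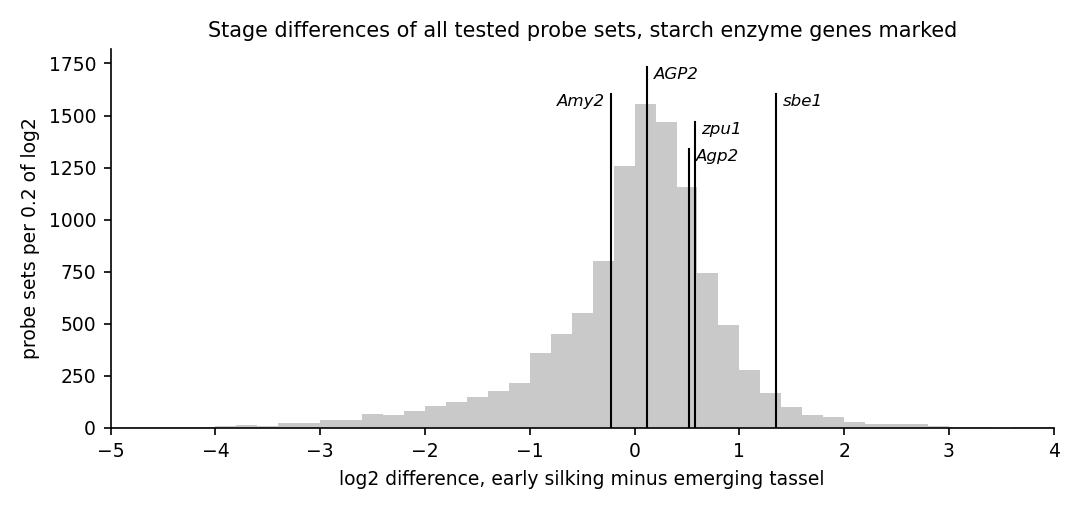
Number of probe sets (y axis, per 0.2 of log2) by log2 difference, early silking minus emerging tassel (x axis), over the 10782 tested probe sets, of which 14 lie outside the range drawn, with lines at the 5 starch enzyme genes. AGP2, Agp2, zpu1 and Amy2 lie within the body of the distribution, whose 5th and 95th percentiles are -1.73 and 1.17, and sbe1 lies beyond the 95th.

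Other measures moved with stage beside these genes, and their part in the differences was not tested. In 5 control transcripts the signal at the 3' end was above that at the 5' end, a gap that depends on RNA integrity and on amplification. Its mean in log2 was 1.84 and 2.37 at early silking, against 4.57 and 2.88 at emerging tassel, without overlap. In cyclophilin alone the stages overlapped, at 0.33 and 0.72 at early silking against 2.05 and 0.68 at emerging tassel. Replicate 1 minus replicate 2 of the mean gap was -0.53 at early silking and 1.69 at emerging tassel. The same difference for AGP2, Agp2, sbe1, zpu1 and Amy2 was 0.66, 0.14, 0.20, -0.26 and 0.89 at early silking. At emerging tassel it was 1.32, -0.05, 0.25, 0.52 and -0.45 for these genes in that order. The 4 measured genes of secondary walls in stems were present, all 4 lower at early silking without overlap. Their mean log2 levels were 10.70 and 10.31 at early silking against 12.63 and 13.06 at emerging tassel. The 4 genes of green tissue had mean levels of 11.72 and 11.21 at early silking against 10.42 and 11.29 at emerging tassel. Of these, 2 were higher at early silking without overlap. Over all tested probe sets, 59.7% were apart in either direction and 34.9% were apart and higher at early silking. Of 12 kernel genes, 9 did not exceed the floor of 4 on any array, none of them being above 2.82, among them the storage protein genes gz50, dzs18, fl2 and glb2 and the regulators o2 and pbf1. The other three were bt2, the polycomb gene mez1 and the zein gene gz27. mez1 had 5.70 and 5.38 at early silking, against 6.89 and 6.92 at emerging tassel, lower without overlap. gz27 had 6.86 and 5.99 at early silking against 6.85 and 6.97 at emerging tassel in the brightest of its probe sets. The list of pollen and anther genes had 1 gene with a named probe set, tua1, at 9.93 and 9.27 at early silking against 9.78 and 10.30 at emerging tassel. RNA of whole internodes does not tell fewer cells of a type from less RNA per cell.

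For each of the 5 genes, the 3 named genes with the nearest pattern were taken from 705 by the root mean square difference of their values over the 4 arrays, each gene centred on its own mean. With 4 arrays this is a description of likeness, and many genes share so short a pattern. Nearest to sbe1 were sps1, a sucrose phosphate synthase gene, pdc2, a pyruvate decarboxylase gene, and the MADS box gene zap1, at differences of 0.069, 0.099 and 0.10. sps1 had log2 levels of 8.68 and 8.60 at early silking, against 7.43 and 7.04 at emerging tassel. Nearest to Agp2 were mbd108, the enolase gene eno2 and GOS2, a translation initiation factor gene, at 0.036, 0.041 and 0.046. eno2 had 12.65 and 12.57 at early silking, against 11.98 and 12.10 at emerging tassel.

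zpu1 lay nearest to gtc102, also named SPT16, at 0.034, and then to vef101 and the ubiquitin-conjugating enzyme gene ubc7, at 0.070 and 0.091. gtc102 had 9.89 and 10.21 at early silking, against 9.77 and 9.28 at emerging tassel. AGP2 lay nearest to TMT, the lipoxygenase gene lox1 and GBF1, at 0.16, 0.16 and 0.17. As the choice by likeness brings with it, these were like AGP2 higher in replicate 1 than in replicate 2 at both stages. TMT lay close to the floor of 4, at 4.03 and 3.78 at early silking against 4.44 and 3.27 at emerging tassel. Amy2 lay nearest to the aquaporin gene pip2c, the pyruvate dehydrogenase gene pdh2 and hcf106, a gene of protein transport into thylakoids, at 0.11, 0.12 and 0.13. By the same choice, these 3 shared with Amy2 a higher replicate 1 at early silking and a higher replicate 2 at emerging tassel.

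**Figure D4:**
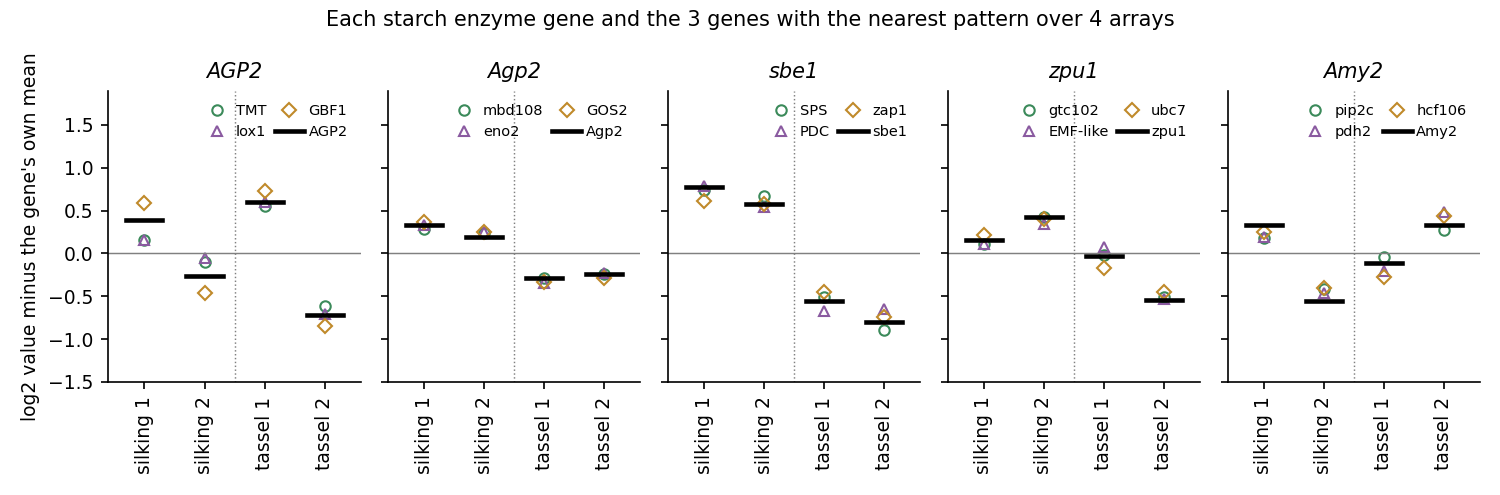
Log2 value minus the gene's own mean (y axis) on each array (x axis, early silking left of the dotted line) for each of the 5 starch enzyme genes (black bars) and the 3 named genes nearest to it (open symbols). The patterns of sbe1 and Agp2 split by stage, while those of AGP2 and Amy2 split by replicate within each stage.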

How the data were processed

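The authors deposited log2 probe set values made with GCRMA, a background correction by probe sequence with normalization between arrays, per the submitters' processing notes. That the scale is log2 was judged from the range of the values, and the GCRMA version is not given in the sources used here. RNA amounts were 340 and 400 ng at early silking and 290 and 440 ng at emerging tassel, per the labels. The 113 controls were left out, and a probe set was tested when above a log2 value of 4 on at least 2 of the 4 arrays. A further 66 probe sets for reporter sequences were kept with the genes, and 1 of them was tested.

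Early silking minus emerging tassel was tested with limma (lmFit and eBayes, version 3.58.1, in R 4.3.3) as a 2-sided test, with p-values adjusted by Benjamini-Hochberg over all 10782 probe sets and a threshold of 0.05, without a replicate term. The labels do not say that the replicate numbers pair the arrays, so no pairing was assumed. Same-numbered arrays tended to deviate from their stage means in opposite directions (r = -0.42). With 2 arrays a stage the deviations within a stage mirror each other, so this correlation cannot decide whether the arrays were paired. The fit was also run on data simulated with variances drawn from the same fit and independent errors. Such data do not hold related deviations between arrays, so the run does not check the fit against them.

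Names came from the platform annotation through gene IDs to RefSeq names (Zm-B73-REFERENCE-NAM-5.0), and 1060 of 1108 genes matched. Where a gene had several probe sets, that with the highest mean stood for it. Of 64 starch symbols, among which a gene can stand under several names, 44 matched no named probe set. That is not a count of genes missing from the array. The marker symbol GLB1 matched a hemoglobin gene and was dropped. Named were the 5 genes, every starch gene with a named probe set and 3 nearest genes each. Genes, lists and tests were chosen with earlier results of these data known. Alternatives tried were left-out arrays, the replicate block, an intensity trend, arrays scaled by quantiles or medians, other filters and the named genes alone. The number of arrays limits the precision.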

Additional observations from a re-analysis of the deposited data

How the results depend on the processing

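No probe set passed under the replicate block (0 probe sets), without a filter, with a mean log2 value above 5, after quantile or median scaling, with an intensity trend, or without any single array (0 to 0). When adjusted over 1 probe set per named gene, 28 of 800 passed (3.5%). With crossed pairs of replicate numbers, a setting added after seeing the data, 357 of 10782 passed. In neither was any of the 13 starch genes among them, and with shares this small that absence says little about the 13. The starch enzyme genes with separate stages numbered 3 to 5 with an array left out, when 77% to 83.2% of all tested probe sets had separate stages, and no filter or scaling moved that count by more than 1.5 times. With arrays left out, the differences ran from -0.54 to 0.78 for AGP2, 0.45 to 0.59 for Agp2, 1.23 to 1.48 for sbe1, 0.32 to 0.84 for zpu1 and -0.67 to 0.22 for Amy2. They ran from -0.18 to 0.27 for ss1, -0.15 to 0.28 for zSSIIb, -0.35 to 0.12 for ae1, -0.71 to 0.55 for iso2 and -0.30 to 0.14 for phi1, so all of these and AGP2 and Amy2 turned sign without some array. That of iso2 was 0.032 after quantile normalization, and the cause was not tested. sbe1, Agp2, zpu1, agpsl1, bt2 and iso3 kept their direction in every alternative with values for single genes, where the lowest adjusted p of sbe1 was 0.0619. The crossed pairs were run for counts of calls. zpu1 has no value under the filter of a mean above 5.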
